A study of Mus musculus with 2 samples.

Results

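Heterotrimeric G proteins and the enzymes that make their second messengers were described across 43 genes in mouse Langerhans cells that lack Htr2a, the serotonin 2A receptor gene. The members were the 13 α, 5 β and 12 γ subunit genes, 4 phospholipase C β genes and 9 adenylyl cyclase genes named in a fixed list, matched by GENCODE M21 symbol on GRCm38. All 43 were found among 55487 Ensembl gene rows. Both libraries belong to a single group: Langerhans cells of the genotype HTR2A-/-, taken from mouse ears, sorted as CD207+ and MHC II+, and held for 24 hours with imiquimod, a Toll-like receptor 7 agonist, and an agent labelled a-CD40L. Of the mice, neither sex, age, strain, the deleted part of the gene nor the number behind each library was stated in the labels. The series title calls the cells monocyte-derived, whereas the protocols describe cells sorted from ears. No wild-type or untreated cells were analysed here, so no value below is an effect of the genotype or of the treatment, and a difference between the libraries is a difference between replicates.

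G protein-coupled receptors, to which all serotonin receptors but the type 3 channel belong, act through a GTP-binding α subunit and a βγ dimer. The Gαs class stimulates adenylyl cyclase and so raises cAMP, and the Gαi class inhibits it. The Gαq class activates phospholipase C β, which releases calcium through inositol trisphosphate and forms diacylglycerol, and the Gα12 class is a further α class. The serotonin 2A receptor is known chiefly for coupling to Gαq. In dendritic cells, chemokine receptors such as Ccr7 signal through Gαi, and βγ dimers released from Gαi activate the hematopoietic phospholipase C β2.

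Library 1 held 69925160 counts and library 2 held 42264685. Htr2a itself had 77 and 117 counts, at percentiles 44.5 and 33.4 of the olfactory receptor genes per kb of exon; as the deleted part is not given, counts over the whole gene do not check it. The sort marker Cd207 was at 1125 and 1052 CPM (counts divided by the library total and scaled to 1000000). The 14 Langerhans cell markers together were at 24289 and 13232 CPM, the 14 mature dendritic cell markers at 3757 and 1082 CPM, and the 14 keratinocyte markers at 4958 and 17014 CPM. Of these lists 13, 11 and 13 genes passed the background set below in each library, and none was at 0 counts. Keratinocyte markers were thus above background beside Langerhans cell markers in both libraries, and the 2 kinds of marker stood in different proportions. In such bulk samples, fewer cells of a type and less RNA per cell cannot be told apart.

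Of the 43 genes, 22 were above background in both libraries: 9 α, 2 β and 5 γ subunits, 2 phospholipases and 4 cyclases. Background was set by 1135 protein-coding olfactory receptor genes, which most tissues do not express. The threshold was their 95th percentile in CPM per kb of exon, 0.761 in library 1 and 1.58 in library 2, and a gene above background lay over it. Among all genes with an exon length 27.2% passed in both libraries, and among protein-coding genes 47.3% did. At 22 of 43, the members were thus near the share of protein-coding genes as a whole. Both Gα12 genes passed in both libraries. The Gαq class had 1 gene that did not, Gna14, which passed in library 1 alone.

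**Figure D1:**
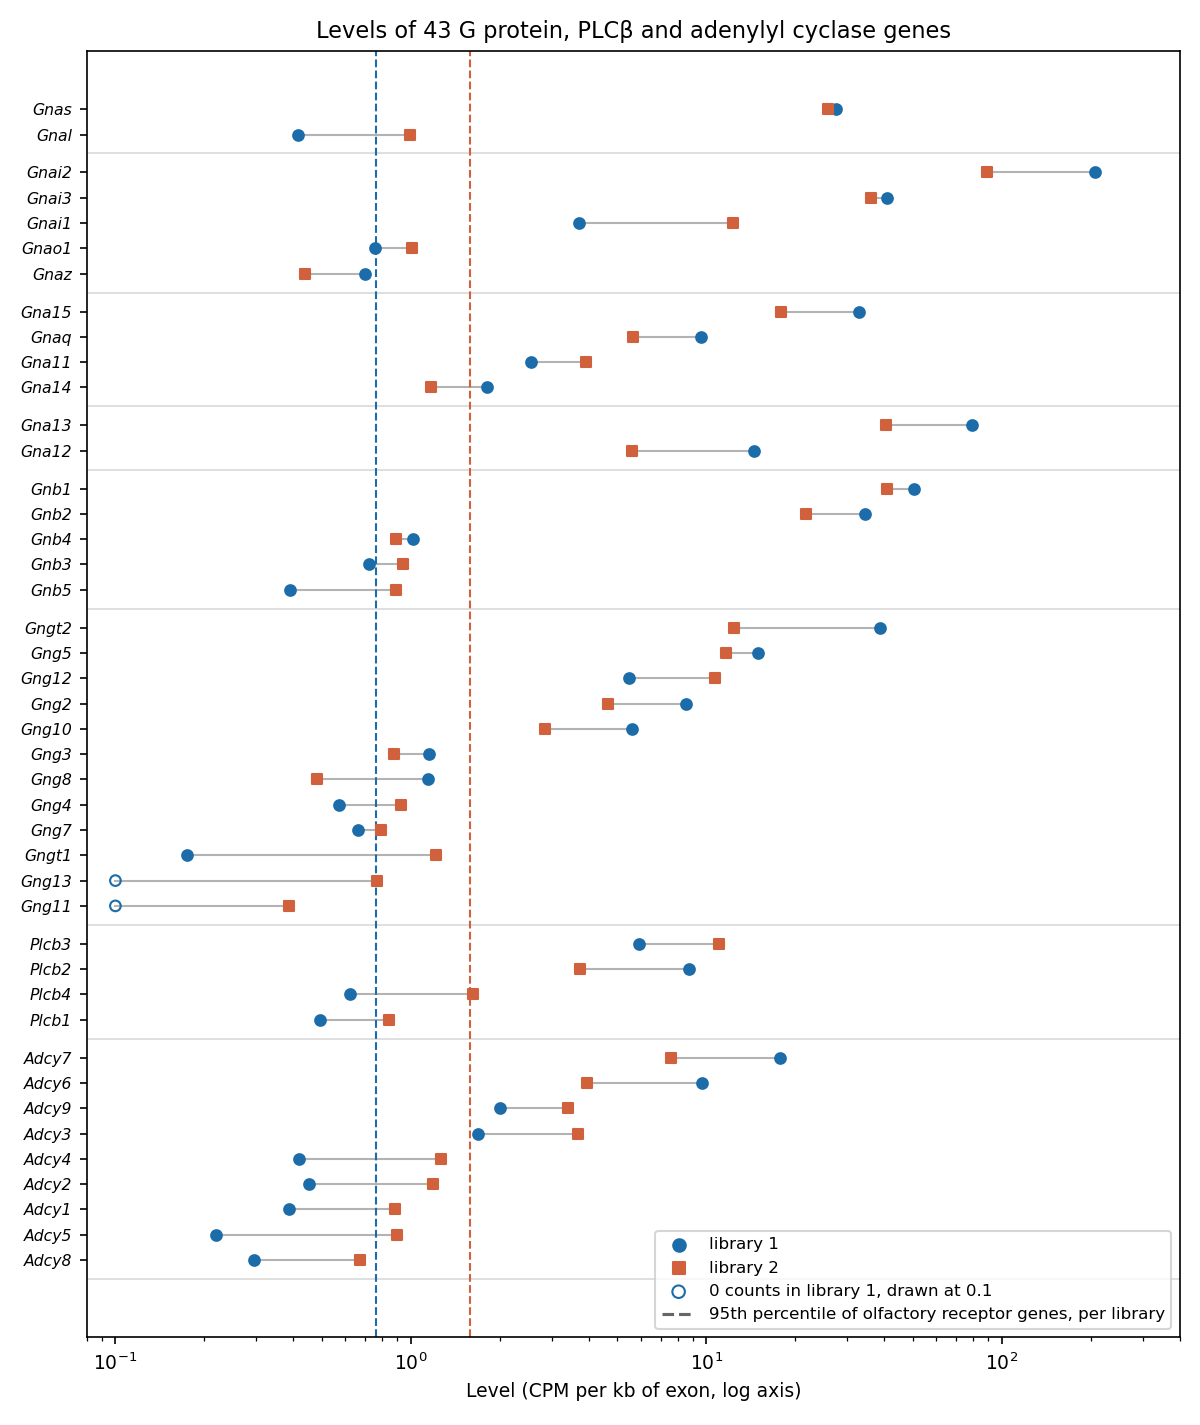
Level of each member in CPM per kb of exon (log axis), by family and ordered by the mean of both libraries. Circles are library 1 (open where it had 0 counts, drawn at the left edge) and squares library 2, with no error bars because each point is a single library. Dashed lines are the 95th percentile of olfactory receptor genes in each library (0.761 and 1.58). Gnai2 lies farthest to the right in both libraries, and 22 genes lie to the right of the dashed line of their library for both points.

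The inhibitory class was the most abundant α class, and Gnai2 was the most abundant of all 43 genes. Gnai2 (ENSMUSG00000032562, GRCm38 chromosome 9, 107614125 to 107635367) was at 207 CPM per kb in library 1 (exact 95% Poisson interval 206 to 209) and 89.0 in library 2 (87.5 to 90.5), or 148 ± 83.6 (SD, n = 2). These levels exceeded those of 99.6% and 98.7% of protein-coding genes. Gnai3, which encodes a closely related ubiquitous α subunit, followed at 40.9 and 36.1 CPM per kb, or 38.5 ± 3.41. Gnai2 thus led Gnai3 in both libraries, but by different margins. Per kb of exon the ratio of Gnai2 to Gnai3 was 5.07 in library 1 (95% interval 4.96 to 5.18) and 2.47 in library 2 (2.39 to 2.55).

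Gnai1, a Gαi gene best known from brain, went the other way. It was at 3.70 CPM per kb in library 1 (95% Poisson interval 3.45 to 3.96) and 12.3 in library 2 (11.7 to 12.9), and so was higher in library 2 where Gnai2 was lower. The share of Gnai1 in the summed level of the class was 1.46% in library 1 and 8.85% in library 2, while that of Gnai2 was 81.8% and 64.1%. Gnao1 and Gnaz, both α subunits of neurons, were not above background in either library, at 0.758 and 1.01 CPM per kb and at 0.697 and 0.439.

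The GTPase that stimulates adenylyl cyclase was represented by Gnas alone. Gnas, on chromosome 2 (174284320 to 174346744), was at 27.4 CPM per kb in library 1 and 25.8 in library 2, or 26.6 ± 1.15 (SD, n = 2). Among the 22 members above background it had the smallest SD relative to its mean with levels scaled by library total. On the trimmed mean scale used below, the log2 ratio of Gnas, library 2 over library 1, was -0.59. On that scale Gna11 (0.12), Adcy9 (0.26), Plcb3 (0.39) and Gng12 (0.47) differed less between the libraries. Gnal, the stimulatory α subunit of olfactory and striatal neurons, was at 0.413 and 0.991 CPM per kb, within background in both. The Gnas locus carries several first exons and imprinted transcripts, so its union of exons (11186 bp) is far longer than its longest transcript (3947 bp). Per kb of longest transcript its level was 77.8 and 73.2, and the Gαs class held 16.8% rather than 8.88% of the α total, as the mean of both libraries.

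In the Gαq class Gna15 was the leading gene. Gna15 encodes a promiscuous α subunit of hematopoietic cells that couples many receptors to phospholipase C β. It was at 32.8 CPM per kb in library 1 and 17.9 in library 2, or 25.3 ± 10.5 (SD, n = 2). Gnaq, the ubiquitous member and the usual partner of the serotonin 2A receptor, was at 9.62 and 5.63, and the equally widespread Gna11 at 2.55 and 3.91. Gna15 exceeded Gnaq by a near-constant ratio, 3.40 per kb in library 1 (95% interval 3.27 to 3.55) and 3.19 in library 2 (2.97 to 3.42). Against Gna11 the ratio was 12.9 (11.9 to 13.9) in library 1 and 4.59 (4.19 to 5.03) in library 2. Gna14, at 1.81 and 1.17 CPM per kb, passed the background in the first library alone. By raw counts, which favour the longer gene, Gna15 and Gnaq were close, with 4890 against 4162 counts in library 1 and 1619 against 1472 in library 2.

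In the Gα12 class, Gna13 held 84.5% of the level in library 1 and 87.9% in library 2. It was at 79.4 and 40.7 CPM per kb, or 60.0 ± 27.4 (SD, n = 2), second among α genes after Gnai2 in both libraries per kb of exon, and below Gnas in library 2 per kb of longest transcript (42.4 against 73.2). Gna12 was at 14.5 and 5.62. Both were lower in library 2, and the ratio of Gna13 to Gna12 was 5.47 (5.28 to 5.66) and 7.24 (6.74 to 7.78).

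Summed over the 13 α genes, Gαi held 60.1% of the level per kb in library 1 and 57.7% in library 2. The Gα12 class held 22.3% and 19.2%, Gαq 11.1% and 11.9%, and Gαs 6.60% and 11.1%. The 4 classes had the same order in both libraries. With the longest transcript as the length, Gαs stood above Gα12 in library 2 and below it (12.5% against 15.5%) in library 1.

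**Figure D2:**
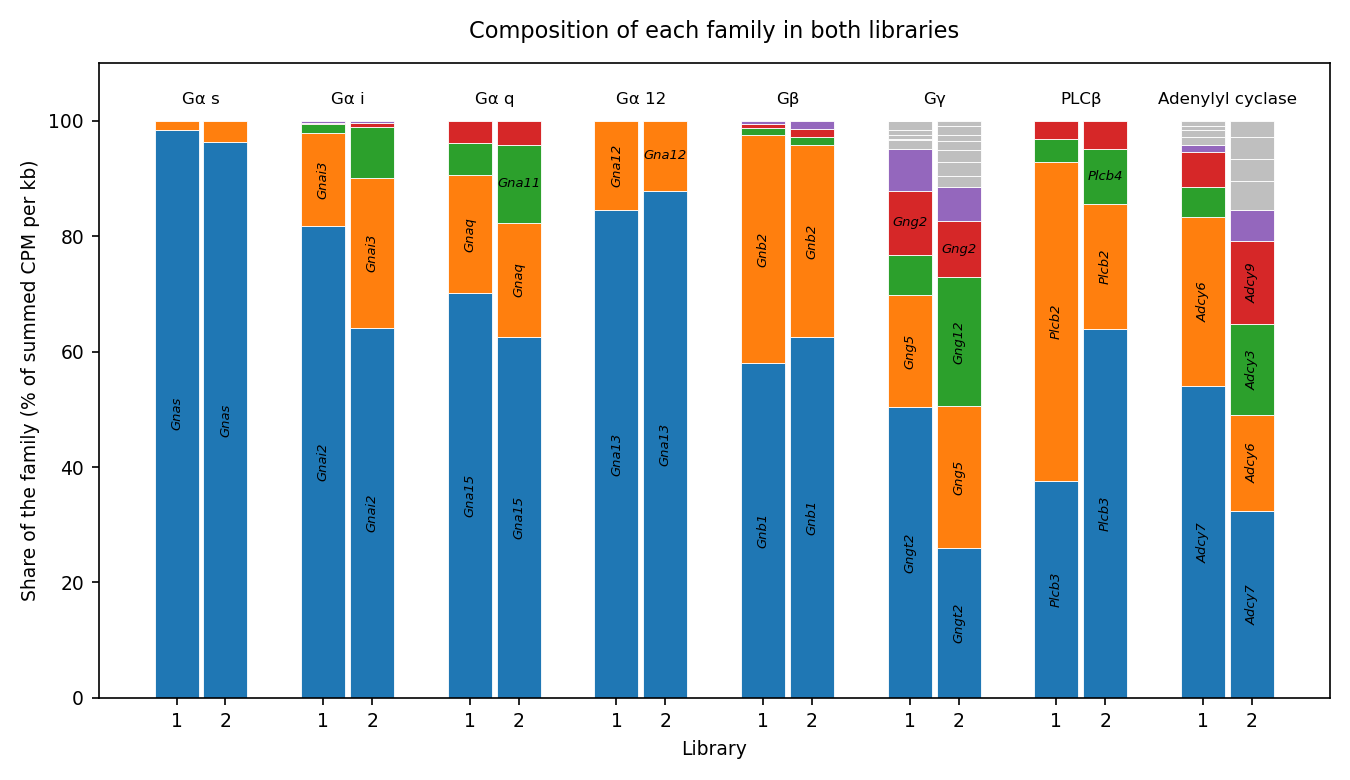
Share of each member in the summed CPM per kb of its family, in library 1 and library 2, as stacked bars that add to 100%. Members are stacked by mean share, grey marks members ranked below the fifth place, and segments of at least 9% carry the gene name. Gnai2, Gna15, Gna13 and Gnb1 lead their families in both libraries, whereas the leading phospholipase C β gene is Plcb2 in library 1 (55.4%) and Plcb3 in library 2 (64.0%).

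Of the β subunits, Gnb1 and Gnb2 made up nearly the whole level. Gnb1 was at 50.3 CPM per kb in library 1 and 40.9 in library 2 (45.6 ± 6.63, SD, n = 2), and Gnb2 at 34.3 and 21.8 (28.1 ± 8.88). Gnb1 held 58.0% and 62.5% of the family and Gnb2 39.6% and 33.3%, so the other 3 genes held small shares in both libraries. Gnb4 was above background in library 1 at 1.02 CPM per kb and within it in library 2 at 0.891. Gnb3, a subunit of cone photoreceptors and taste cells, and Gnb5, the partner of a group of neuronal RGS proteins, were within background in both libraries.

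The γ level was divided among several genes, and the share of Gngt2 was 38.2% ± 17.2 (SD, n = 2). Gngt2, known as the γ subunit of cone photoreceptors and also found in immune cells, led in library 1 at 38.8 CPM per kb (95% Poisson interval 37.7 to 39.8) and was at 12.4 in library 2 (11.7 to 13.2). Gng5, a broadly expressed subunit, was at 14.9 and 11.7, and Gng12, also broadly expressed, at 5.45 and 10.7. In library 1 these 3 genes were well apart, and in library 2 they lay within a narrow range per kb. Without division by length, Gng12 led in library 2 with 35.2% of the family, ahead of Gng5 (22.5%) and Gngt2 (16.2%). The ratio of Gngt2 to Gng5 per kb was 2.60 in library 1 (2.48 to 2.72) and 1.06 in library 2, with an interval that included 1 (0.979 to 1.16). Gng2 (8.52 and 4.63) and Gng10 (5.59 and 2.85) were also above background in both libraries.

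The other 7 γ genes were not above background in both libraries. Gng11 and Gng13 had 0 counts in library 1, which allows up to 3 counts or 0.0429 CPM each, and 15 and 25 counts in library 2. Gng3 and Gng8 passed in library 1 alone (1.15 CPM per kb each), and Gng4, Gng7 and the rod subunit gene Gngt1 in neither library. Gngt1 had 43 and 181 counts, at percentiles 39.5 and 87.6 of the olfactory receptor genes.

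Counts of several γ genes may include reads of other genes, since the use of strand in counting is not given in the sources used here. Exons of Gngt2 overlap those of Abi3 on the opposite strand over 234 of 1877 bp, and Abi3, a leukocyte gene, had 4490 and 1113 counts. Gng10 shares 946 of 1314 bp of exon with the same-strand gene Gm20503, which had 0 and 11 counts. Gng5 transcripts matched those of 6 other genes at 95% identity or more over at least 150 bp, of which 5 are processed pseudogenes. These 6 had between 0 and 107 counts against 2883 and 1364 for Gng5. Outside the γ genes, Adcy3 overlaps Cenpo over 1380 of 6246 bp, and Cenpo had 560 and 389 counts against 737 and 974 for Adcy3. Gna12 overlaps Amz1 on the opposite strand over 456 of 3416 bp, and Amz1 had 2391 and 445 counts against 3470 and 811 for Gna12. The low γ genes Gng3 and Gng13 overlap the more abundant genes Bscl2 (1831 and 1081 counts) and Chtf18 (408 and 255 counts). The part of such overlaps in the values was not tested.

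Phospholipase C β was present as Plcb2 and Plcb3, and their order reversed between the libraries. Plcb2, the hematopoietic isoform that βγ dimers activate, was at 8.74 CPM per kb in library 1 (95% Poisson interval 8.47 to 9.01) and 3.73 in library 2 (3.50 to 3.96). Plcb3, a widely expressed isoform, was at 5.92 (5.71 to 6.14) and 11.0 (10.6 to 11.4). Plcb2 was thus the higher of the pair in library 1 and the lower in library 2. The ratio of Plcb3 to Plcb2 per kb was 0.678 (0.646 to 0.711) and 2.95 (2.75 to 3.17), and it lay on the same sides of 1 per kb of longest transcript (0.807 and 3.52). Plcb1, an isoform abundant in brain, was within background in both libraries, and Plcb4, known from retina and cerebellum, passed in library 2 alone, at 1.62 CPM per kb against a threshold of 1.58.

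Among adenylyl cyclases, 4 of 9 genes were above background. Adcy7, the main isoform of many immune cells, was at 17.8 CPM per kb in library 1 and 7.62 in library 2 (12.7 ± 7.18, SD, n = 2), or 54.0% and 32.3% of the family. Adcy6, a calcium-inhibited isoform, was at 9.70 and 3.96 (6.83 ± 4.06). Both were lower in library 2, with a ratio of Adcy7 to Adcy6 of 1.83 in library 1 (95% interval 1.77 to 1.90) and 1.93 in library 2 (1.79 to 2.07). Adcy3, the cyclase of olfactory cilia that is also found elsewhere, was at 1.69 and 3.69, and Adcy9, a forskolin-insensitive isoform, at 2.00 and 3.39. Both had the higher level in library 2. The ratio of Adcy7 to Adcy3 was accordingly 10.5 (9.77 to 11.4) and 2.06 (1.91 to 2.23). Adcy1, Adcy2, Adcy4, Adcy5 and Adcy8 were within background in both libraries, at 0.219 to 0.452 CPM per kb in library 1 and 0.673 to 1.27 in library 2.

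Library 2 was next compared with library 1 gene by gene, as a measure of how far the replicates differ. Log2 ratios were scaled by TMM, edgeR's trimmed mean normalization, which lowers a ratio by 0.50 against total counts. Over 30373 genes tested, the median log2 ratio was 0.15 with TMM and 0.65 with total counts. Of the members 41 were tested, Gng11 and Gng13 being under 1 CPM in both libraries. Their median was -0.59 with TMM and -0.09 with total counts, below that of all genes on either scale.

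With TMM, 15 members were at least 2-fold lower in library 2 and 4 at least 2-fold higher, against 12.6% and 24.5% of all genes tested. With total counts the split was 7 lower and 11 higher, against 5.48% and 38.6% of all genes. The olfactory receptor genes that were tested had a median log2 ratio of 1.03 with TMM. Of the 21 members not above background in both libraries 16 had the higher CPM in library 2, as did 68.0% of all such genes and 79.6% of such protein-coding genes, so the members were near the general share. Of the 22 members above background, 12 were at least 2-fold lower and 1 at least 2-fold higher with TMM (6 and 2 with total counts). Among all tested genes above background these shares were 18.5% and 6.23% with TMM, and 7.14% and 15.4% with total counts. By any size 16 of the 22 were lower, beside 67.0% of all tested genes above background.

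The 12 were Gnai2, Gnaq, Gna15, Gna12, Gna13, Gnb2, Gng2, Gng10, Gngt2, Plcb2, Adcy6 and Adcy7. On the TMM scale Gngt2 was 4.41-fold lower in library 2 (log2 ratio -2.14), Gna12 3.66-fold (-1.87), Adcy6 3.47-fold (-1.79), Plcb2 3.32-fold (-1.73) and Gnai2 3.30-fold (-1.72). These 5 and Adcy7 (-1.72) also passed 2-fold with total counts, whereas the other 6 did not, with log2 ratios from -0.97 to -0.66 on that scale. Gnb1 (-0.80), Gng5 (-0.85), Gnai3 (-0.68) and Gnas (-0.59) were lower by less than 2-fold on the TMM scale. The gene higher by at least 2-fold was Gnai1, by 2.34-fold (log2 ratio 1.23). Plcb3 (0.39), Gng12 (0.47), Adcy3 (0.63), Adcy9 (0.26) and Gna11 (0.12) had positive ratios below that size, and Adcy3 passed 2-fold with total counts (1.13). Of the members not above background in both, Gnaz (-1.16), Gna14 (-1.12) and Gng8 (-1.72) were also at least 2-fold lower, and Gngt1 (2.27), Adcy4 (1.09) and Adcy5 (1.52) at least 2-fold higher. The median over the 22 was -1.22 with TMM, beside -0.33 for all tested genes above background.

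In edgeR's exact binomial test, adjusted by Benjamini-Hochberg over the 30373 genes, 21 members were called lower and 15 higher in library 2, beside 35.9% and 44.3% of all genes. In either direction 80.1% of all genes were called. This is a comparison of 2 libraries that allows for counting noise only, and not one of conditions. The direction of a call was that of its TMM ratio, but the most abundant genes were tested on total counts, without TMM factors. Among the members these were Gnas, Gnai2, Gnai3, Gna13, Gnb1, Gnb2 and Adcy7, all lower in library 2 on both scales. Of the 22 members above background, Gna11 was not called (adjusted p = 0.157 by this exact binomial test). With a dispersion of 0.04 in edgeR's exact test, which allows for further spread, fewer members were called in each direction. The number called higher fell by more than the number called lower. No share over all genes was taken at this dispersion. Of the members above background, Gnai1 was then called higher (adjusted p = 0.0142, edgeR exact test), while Gnas (adjusted p = 0.270) and Gnai3 (adjusted p = 0.194) were not called.

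Markers of cell types moved in the same contrast. Of the 14 keratinocyte markers 11 were at least 2-fold higher in library 2 on the TMM scale and none 2-fold lower, with a median of 1.29. Of the 14 mature dendritic cell markers 11 were at least 2-fold lower and 1 higher (median -2.15), and of the 14 Langerhans cell markers 11 were lower and none higher (median -1.33). With total counts the Langerhans cell count was 5 lower (median -0.83), the mature dendritic cell count 10 lower and 1 higher, and the keratinocyte count 11 higher. Of the 8 T cell markers 6 were above background in both libraries and 5 were at least 2-fold lower with TMM (median -1.98). Thy1, above background at 10.3 and 22.8 CPM per kb, had a positive log2 ratio of 0.64, and 1.14 with total counts. None of the 8 fibroblast or 6 melanocyte genes, 1 of the 6 endothelial genes and 2 of the 7 mast cell genes were above background in both. The part of keratinocyte, dendritic cell or T cell RNA in the member values was not tested.

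**Figure D3:**
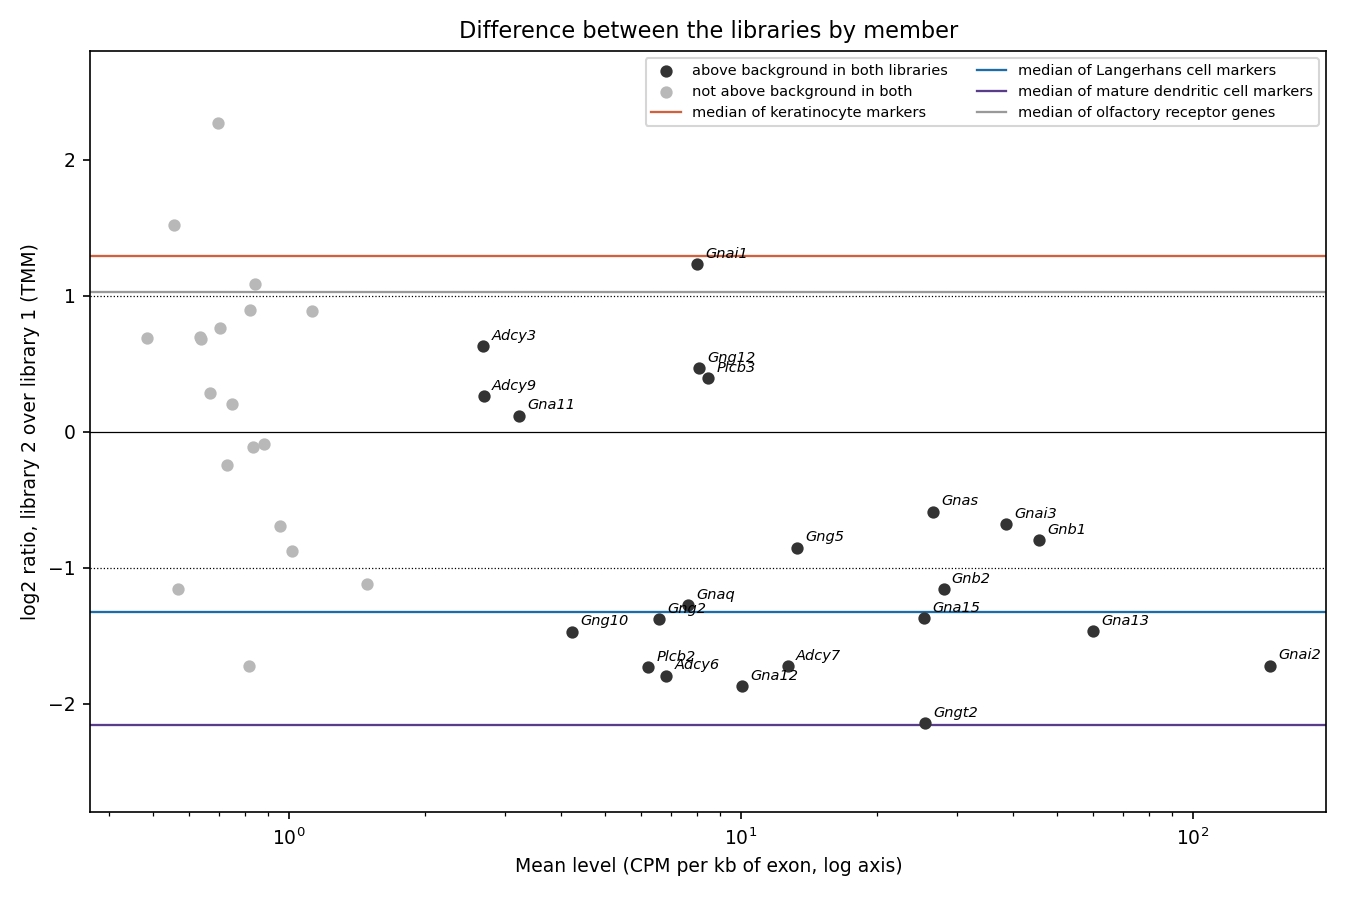
Log2 ratio of library 2 over library 1 (TMM scale) against mean level in CPM per kb (log axis) for the 41 members tested. Black points are above background in both libraries and carry names, and grey points are not. Horizontal lines are medians of marker lists and of olfactory receptor genes, and dotted lines mark 2-fold. Among the named points Gngt2 (-2.14) is the lowest and Gnai1 (1.23) the highest. The part of any cell type's RNA in these values was not tested.

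Other genes of the same pathways were taken from 7 lists with 77 genes, of which 52 were above background in both libraries. Of these 52, 26 were at least 2-fold lower in library 2 and 0 at least 2-fold higher with TMM, beside 18.5% and 6.23% of all tested genes above background. With total counts they were 12 and 4, beside 7.14% and 15.4%. Of all 76 tested genes of the lists, 53 were called lower, 15 higher and 8 were not called by the exact binomial test, beside 35.9% lower and 44.3% higher over all genes. Being called at all was common among genes in general (80.1%). Directions in these calls were those of the TMM ratio, while the most abundant genes were tested on total counts, so the split mixes 2 scales. Pde4b was thus counted as called lower, with log2 ratios of -0.41 with TMM and 0.09 with total counts. The median log2 ratio of the 76 on the TMM scale was -0.72.

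The regulators of G protein signalling, which speed GTP hydrolysis by α subunits, held the most abundant genes of the pathway lists per kb. Rgs1, a brake on Gαi and Gαq signalling in leukocytes, was at 498 and 171 CPM per kb, above every one of the 43 members in library 1 and in library 2. Rgs2, which acts mainly on Gαq, was at 308 and 162. Both were lower in library 2 on the TMM scale, with log2 ratios of -2.04 and -1.43. Rgs10, Rgs14 and Rgs19 were also at least 2-fold lower (-1.77, -1.82 and -1.48), and 7 of the 11 genes of this list were above background. With total counts 3 of those were 2-fold lower, namely Rgs1, Rgs10 and Rgs14.

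In the list of receptor kinases, arrestins and G protein chaperones, 11 of 13 genes were above background. Arrb2, which encodes β-arrestin 2, was at 64.4 and 24.4 CPM per kb, and Grk2, a kinase that marks active receptors for arrestin, at 42.3 and 23.6. Both were at least 2-fold lower in library 2 on the TMM scale, as were Arrb1, Grk3 and the Gαi regulator Gpsm3. The log2 ratio of Gpsm3 was -2.17. With total counts 3 genes of the list above background were 2-fold lower, namely Arrb1, Arrb2 and Gpsm3. Ric8a, a chaperone of Gαi, Gαq and Gα12 subunits, was at 6.04 and 5.69 CPM per kb, a log2 ratio of -0.59.

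Of the cAMP effectors 10 of 14 genes were above background. Prkar1a, a regulatory subunit of protein kinase A, led at 50.2 and 29.7 CPM per kb, followed by the transcription factor gene Atf1 at 18.3 and 13.8. Prkar2b, another regulatory subunit, was at 10.1 and 2.21 CPM per kb, with a log2 ratio of -2.69. It was the list member farthest from 0 on the TMM scale. On that scale Prkar1a, Prkacb, Creb1, Crem and Crtc3 were also at least 2-fold lower in library 2. With total counts 3 genes of the list above background were 2-fold lower, namely Prkar2b, Prkacb and Crem. Rapgef3 and Rapgef4, the cAMP-activated exchange factors Epac1 and Epac2, were not above background in both libraries.

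Of the 13 phosphodiesterases 6 were above background. Pde4b, which degrades cAMP in many leukocytes, was at 30.5 and 32.4 CPM per kb, or 31.4 ± 1.40 (SD, n = 2). Pde8a, the next gene, was at 14.3 and 7.81. The log2 ratio of Pde4b was -0.41 on the TMM scale, and 0.09 when total counts set the scale. Pde3b, Pde7a and Pde8a were at least 2-fold lower in library 2 on the TMM scale, and of these Pde3b alone with total counts.

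The calcium and diacylglycerol arm had genes on both sides. Prkcb, a conventional protein kinase C of immune cells, was at 26.6 and 7.02 CPM per kb (log2 ratio -2.42), and Prkcd, a kinase activated by diacylglycerol without calcium, at 26.8 and 21.2 (-0.84). The diacylglycerol kinase gene Dgkz was at 22.6 and 11.6 (-1.46), and Prkch, Orai1 and Orai2 were also at least 2-fold lower in library 2. Itpr3, an inositol trisphosphate receptor, was at 9.06 and 21.6 CPM per kb (0.75), Stim1 at 4.64 and 10.7 (0.70) and Dgka at 9.17 and 18.4 (0.50). All 3 were thus higher per kb in library 2, as Plcb3 was. The balance of this list turned with the scaling: of its 11 genes above background 5 were at least 2-fold lower and 0 higher with TMM, and 1 lower and 3 higher with total counts. On the latter scale Prkcb was the gene lower (-1.92), and Itpr3 (1.25), Stim1 and Dgka (1.01) were the genes higher. Of 4 further family genes, none of Gnat1, Gnat2, Gnat3 and Adcy10 was above background in both libraries.

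**Figure D4:**
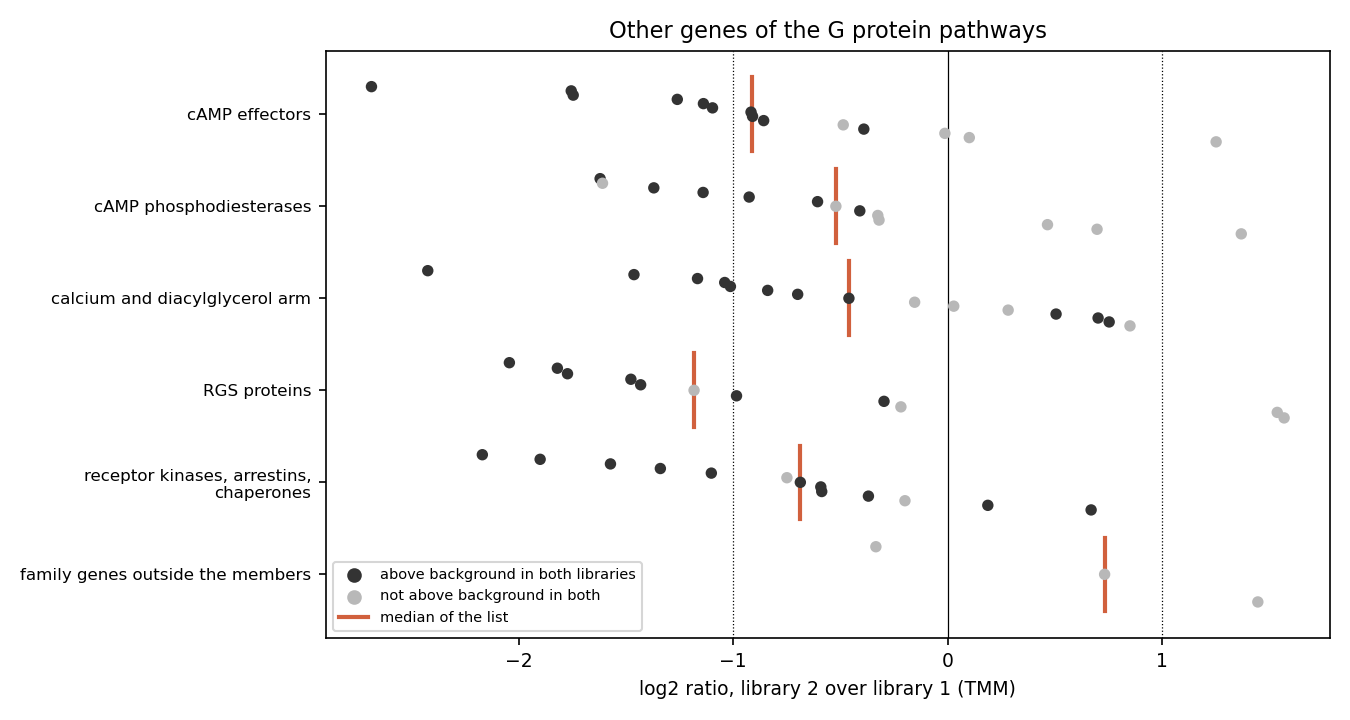
Log2 ratio of library 2 over library 1 (TMM scale) for the tested genes of the pathway lists described in the text, 1 point per gene with vertical spread for legibility only. Black points are above background in both libraries, grey points are not, bars are list medians and dotted lines mark 2-fold. No black point reaches 2-fold higher, and Prkar2b (-2.69) lies farthest to the left.

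Several members are neighbours on a chromosome, and levels of neighbours within the Gαq class differed. Gna15 and Gna11 lie 4498 bp apart on chromosome 10, on the same strand with no protein-coding gene between them, yet Gna15 exceeded Gna11 by a ratio of 12.9 in library 1 and 4.59 in library 2. Gnaq and Gna14 lie 48298 bp apart on chromosome 19, with Gnaq higher in both libraries, by ratios of 5.32 in library 1 and 4.81 in library 2. In library 2 Gna14 was within background (1.17 CPM per kb against 1.58), so the second ratio has a denominator of background size. Plcb1 and Plcb4, 183752 bp apart on chromosome 2, and Gngt1 and Gng11, 6467 bp apart on chromosome 6, were not above background in both libraries.

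Promoter windows from RefSeq (GRCm38.p6), the 250 bases before an annotated gene start, were found for 34 of the 43 members. The windows of the neighbours Gna11 and Gna15, whose levels are compared above, and of Gnai1 and Gnai3, whose log2 ratios between the libraries had opposite signs, are given here 5′ to 3′ on the strand of the gene, with matches to the GC box GGGCGG on either strand in capitals. They lie at chr10:81545163-81545412 (Gna11), chr10:81524226-81524475 (Gna15), chr5:18360414-18360663 (Gnai1) and chr3:108146153-108146402 (Gnai3), all on the minus strand. Of the Gna11 window 28 bases lie in an annotated GENCODE exon.
Gna11: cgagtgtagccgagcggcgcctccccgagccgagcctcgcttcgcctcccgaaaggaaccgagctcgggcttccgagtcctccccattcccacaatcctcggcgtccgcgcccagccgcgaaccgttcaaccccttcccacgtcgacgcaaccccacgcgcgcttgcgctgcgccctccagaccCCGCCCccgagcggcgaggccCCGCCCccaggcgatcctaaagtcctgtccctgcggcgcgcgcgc
Gna15: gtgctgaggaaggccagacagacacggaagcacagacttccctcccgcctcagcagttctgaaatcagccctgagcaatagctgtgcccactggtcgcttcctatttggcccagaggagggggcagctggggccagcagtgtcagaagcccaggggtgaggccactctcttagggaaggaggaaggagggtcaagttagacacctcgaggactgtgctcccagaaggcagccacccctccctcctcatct
Gnai1: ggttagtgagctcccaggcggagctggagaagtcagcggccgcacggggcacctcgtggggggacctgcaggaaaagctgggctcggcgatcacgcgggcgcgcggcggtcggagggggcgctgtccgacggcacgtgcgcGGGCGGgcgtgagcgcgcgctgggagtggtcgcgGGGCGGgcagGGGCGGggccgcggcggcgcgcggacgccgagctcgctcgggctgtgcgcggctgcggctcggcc
Gnai3: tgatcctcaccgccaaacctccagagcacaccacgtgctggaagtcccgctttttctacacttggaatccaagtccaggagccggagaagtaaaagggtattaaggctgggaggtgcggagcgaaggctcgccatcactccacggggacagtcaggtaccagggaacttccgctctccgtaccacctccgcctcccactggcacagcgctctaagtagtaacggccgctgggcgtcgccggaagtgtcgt

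Gna11 had 2 matches and 38 CpG dinucleotides in its window, and Gna15 had 0 matches and 4 CpG dinucleotides. Gnai1 had 3 matches and 43 CpG dinucleotides, and Gnai3 had 0 matches and 18. These 34 members had 45 windows, as some genes have several annotated starts. A GC box was found in 24 of the 45 member windows (53.3%), against 32.7% of all 32851 windows. Counting a gene where any of its windows matched, 23 of the 34 members (67.6%) had one, against 35.4% of 27025 genes. The GC box itself holds a CpG, and the median number of CpG dinucleotides was 20 in the 45 member windows and 6 in all windows. The part of CpG content in the GC box shares was not tested. It was found for 14 of the 19 members above background in both libraries with a window and for 9 of the other 15. Counted in the same way by gene, the cAMP response element TGACGTCA was in 0 of the 34 members and 1.77% of all genes, and GAGGAAGT, a site type of the myeloid factor PU.1, in 1 member (Adcy3) and 2.79% of all genes. These are matches of letters in short windows, not measured binding. Whether a window bears on a gene's level or on its difference between the libraries was not tested.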

How the data were processed

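RNA was measured in 2 libraries of 1 group. The authors deposited counts as whole numbers for each Ensembl gene, without normalization. Trimmomatic, HISAT2, SAMtools and StringTie are named in the submitters' processing notes with the build GRCm38 and no versions. Per the labels' protocols, libraries came from a stranded low-input total RNA kit; the labels state neither annotation release, counting settings nor use of strand. The column with replicate number 2 is library 2; the other carries no number. The file's final row names no gene, holds the totals of both columns, and was dropped.

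Members and lists were chosen with earlier results of these data known, so no test over a list was made. Named were the leading gene of each family, members above background or at least 2-fold apart, and, of the pathway lists, the 2 most abundant genes above background and those at least 2-fold apart; other names were chosen after their values were seen. Exon lengths (union of exons) came from GENCODE M21, for 55227 of 55487 rows. Genes reaching 1 CPM in 1 library or more entered the exact binomial test (edgeR 4.0.16, R 4.3.3), with Benjamini-Hochberg adjustment at 0.05. TMM factors entered that test for all but the most abundant genes. Log2 ratios used a prior count of 1. The planned exact test at a dispersion of 0 was computed with edgeR's binomial test function on the counts. It is exact for all but the most abundant genes, where it uses a chi-square test on total counts without TMM factors. A quasi-likelihood test could not be run, since 1 library against 1 leaves nothing to estimate the spread from. Intervals are exact 95% Poisson, or Clopper-Pearson for ratios of 2 genes, and cover counting error only, since reads without molecular identifiers may be copies of a molecule. The labels do not say that the libraries come from separate mice, so their spread may be technical. Of the 7 pathway lists, 1 enters the counts over all lists and is otherwise not reported here. Overlaps were found with bedtools 2.31.1 and near copies with blastn 2.17.0. Alternatives were DESeq2 1.42.0 size factors, total counts, other filters, prior counts, dispersions, length measures and backgrounds.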

Additional observations from a re-analysis of the deposited data

How the results depend on the processing

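With total counts in place of TMM, 7 members were at least 2-fold lower in library 2 and 11 at least 2-fold higher, and the log2 ratios of Gnao1 (0.41), Gnb3 (0.38) and Gng7 (0.25), none of them called, changed sign. These shifts follow from the scaling, which moves every ratio by the same 0.50. With the median level of olfactory receptor genes subtracted as background, 21 members were at least 2-fold lower on the TMM scale and 4 higher. The genes so added to those lower were Gnao1, Gnb3, Gnb4, Gng3, Gng7 and Adcy8, none above background in both libraries. No share over all genes was taken at this setting. With a dispersion of 0.04 the number called higher was 4, against 15 in the main test. The number called lower was 15, against 21 in the main test. At this dispersion, too, no share over all genes was taken, so these counts have no general share beside them. With CPM not divided by length, Gna15 held 44.5% of its class, Gna13 92.1% and Gnb1 63.8% of its family, Gngt2 26.9% of the γ level, where Gng12 led in library 2, and the α classes held 45.4% (Gαi), 26.2% (Gα12), 20.7% (Gαs) and 7.69% (Gαq). With the longest transcript Gnb1 held 53.1%, and Gαs held 16.8%, Gα12 14.5% and Gαq 8.50%. In single libraries the number above background was 26 and 23. Other planned settings left the number above background between 22 and 27. Leaving out a library leaves no comparison between libraries, so those results have no such value. No paired analysis was possible because there is only 1 group. Counts of background size limit what can be said of the 21 members not above background in both libraries.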
